A study of Mus musculus with 6 samples.

Results

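A set of 10 genes characteristic of adipocytes was followed through RNA-Seq of mouse tibia, namely *Adipoq*, *Plin1*, *Plin4*, *Fabp4*, *Cfd*, *Pparg*, *Lpl*, *Cebpa*, *Cidec* and *Retn*. They were picked by symbol, and all 10 were found among the 55401 gene identifiers of the count tables. Libraries of polyadenylated RNA were made from tibias of Atrx-cKO mice (genotype *Osterix-Cre; Atrx f/y*) and control mice (*Atrx f/y*) at 8 weeks of age, with 3 libraries per genotype. Both groups carry the floxed *Atrx* allele, and only the Atrx-cKO mice carry the Cre transgene, which is driven by the promoter of *Osterix* (*Sp7*), a preosteoblast gene. The transgene is silenced by doxycycline, which the mice received until 3 weeks of age. *Atrx* encodes a chromatin remodeling protein. Its deletion was aimed at the osteoblast lineage, while the RNA came from the whole pulverized bone. The labels name the tissue as tibia and do not name marrow, so fat inside the marrow cannot be told apart from fat left on the outside of the bone. The labels do not state whether libraries of a group came from separate animals, and p-values measure only the spread between these libraries.

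Adipocytes store triglyceride in a large lipid droplet and release hormones called adipokines. In bone they arise from marrow stromal cells, which also give rise to osteoblasts, and they become more abundant in long bones with age. The nuclear receptor PPARγ and the C/EBP factors switch on the adipocyte program. The genes they control encode proteins that take up fatty acids, carry them through the cell, coat the droplet, and signal to other tissues.

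Between 50977777 and 70571655 reads were counted on genes in each library, and a count of 0 allows a level of up to 0.0450 to 0.0630 CPM (counts scaled to library size, here with TMM normalization), which is what 3 counts would give and covers only the error of counting. Library control 3 stood apart in skeletal muscle markers. The summed level of 10 such markers was 12298 CPM there, and lay between 736 and 2437 CPM in the other 5 libraries. *Myh1* was an exception, with 52.3 CPM in control 3 and its highest level, 181 CPM, in Atrx-cKO 1. No marker of muscle, macrophages, neutrophils, endothelium, osteoblasts or erythroid cells was at 0 in any library.

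All 10 adipocyte genes were detected in every library, and no difference between Atrx-cKO and control tibias was detected for any of them. EdgeR's quasi-likelihood test called 0 of them at a Benjamini-Hochberg adjusted p under 0.05 (0.0145% of all 20636 tested genes were called), and 0 at an unadjusted p under 0.05 (3.64% of all genes). DESeq2's Wald test also called 0 (0.142% of all genes). With 1 library left out, edgeR passed 1 of the 10 at an unadjusted p under 0.05 in 3 settings. These were without Atrx-cKO 1, without Atrx-cKO 2 and without control 3 (3.43%, 2.80% and 2.755% of all genes). In every one of the 10 the libraries of the groups overlapped, so 0 were fully separated, against 8.31% of all tested genes. Estimates were higher in Atrx-cKO for *Lpl*, *Fabp4*, *Pparg* and *Adipoq*, and lower for the other 6. The median log2 fold change was -0.15, beside 0.0050 over all tested genes. Leaving out Atrx-cKO 1 gave 0.0695, and leaving out control 3 gave 0.0092. In a bulk tissue, fewer cells of a type and less RNA per cell cannot be told apart.

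The order of the genes' levels was similar in all 6 libraries. Scaled to transcript length, the largest step between neighbors was 7.35-fold, from *Pparg* to *Cidec*. The next largest was 2.28-fold, from *Fabp4* to *Lpl*. *Fabp4* was the highest at 149 ± 32.5 CPM per kb (SD, n = 6 libraries), followed by *Lpl* at 65.0 ± 9.98, *Adipoq* at 47.4 ± 7.80 and *Cebpa* at 31.3 ± 3.54. After them came *Cfd* at 14.3 ± 5.13 and *Pparg* at 13.1 ± 1.52 CPM per kb, and these 2 were not separated, since *Cfd* was higher in 3 of 6 libraries. *Cidec* at 1.78 ± 0.361, *Plin1* at 1.76 ± 0.931 and *Plin4* at 1.42 ± 0.649 CPM per kb lay below the largest step with *Retn*, the lowest, at 0.657 ± 0.146. Below that step, *Cidec* exceeded *Plin1* in 3 of 6 libraries and *Plin1* exceeded *Plin4* in 4 of 6. Every other neighbor in this order was higher than the next in 6 of 6 libraries.

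**Figure D1:**
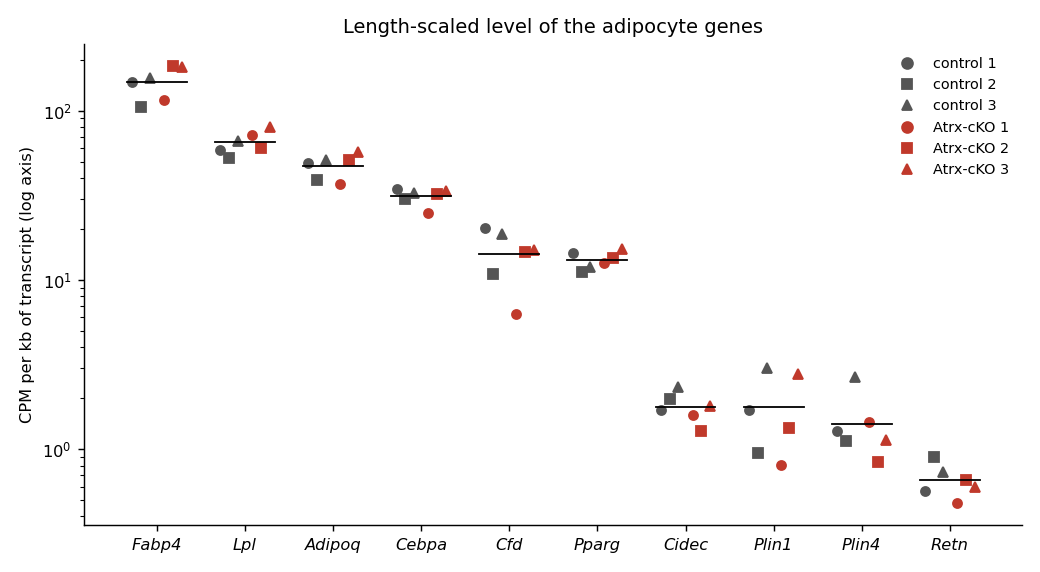
Length-scaled level (CPM per kb of transcript, log axis) of the 10 adipocyte genes in each of the 6 libraries, with gray symbols for control, red for Atrx-cKO, and a bar at the mean of 6. The mean falls from 149 for *Fabp4* to 0.657 for *Retn*, and the step from *Pparg* to *Cidec* is the largest between neighbors.

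The droplet genes *Plin1*, *Plin4* and *Cidec* were thus far below the adipokine gene *Adipoq* in this tissue. This did not hold for all droplet genes. The 9 others followed here ran from 0.202 CPM per kb for *Cidea* to 33.9 for *Cavin1*, with *Plin2* at 29.7. On the per-kb scale, *Adipoq* exceeded *Plin1* by 16.9- to 46.0-fold and *Cidec* by 19.8- to 40.3-fold, depending on the library. *Lpl* exceeded *Plin1* by 22.1- to 89.5-fold. The order of the highest genes depends on the length used. When the union of all annotated exons, which includes retained introns, replaced the transcript length, *Fabp4* dropped to 29.7 and *Lpl* to 25.5 CPM per kb, beside 44.4 for *Adipoq* and 31.2 for *Cebpa*. The genes above the step from *Pparg* (7.85) to *Cidec* (1.65) stayed above those below it.

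The transcription factor genes varied little. *Pparg* (ENSMUSG00000000440, chromosome 6 from 115360951 to 115490399 on the plus strand of GRCm38) encodes the nuclear receptor that drives fat cell formation. It had 22.4, 23.8 and 26.8 CPM in Atrx-cKO replicates 1, 2 and 3 and 25.4, 19.6 and 21.1 CPM in control replicates 1, 2 and 3. All 6 values were close, with the groups interleaved, and the highest was 1.37 times the lowest. Its log2 fold change, Atrx-cKO over control, was 0.14 (95% interval -0.15 to 0.43, edgeR adjusted p = 0.992). *Cebpa* (ENSMUSG00000034957, chromosome 7 from 35119293 to 35121928, plus strand) encodes C/EBPα, which acts with PPARγ and is also made by myeloid progenitors of the marrow. Its levels were 65.0, 84.3 and 87.9 CPM in the Atrx-cKO libraries and 91.1, 79.4 and 85.6 CPM in the controls. Atrx-cKO 1 was the low library, and the other 5 lay together. The difference was -0.11 on the log2 scale (95% interval -0.40 to 0.18, edgeR adjusted p = 0.992). An exon of *Gm45091* on the opposite strand overlaps *Cebpa*. Reads of such a pair cannot be separated if strand was not kept in the library or was not used in counting.

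Adipokine genes came next, and *Adipoq*, the gene of the hormone adiponectin, had the highest level per kb among *Adipoq*, *Cfd* and *Retn*. Which cells made the *Adipoq* RNA cannot be told from whole bone. *Adipoq* (ENSMUSG00000022878, chromosome 16 from 23146536 to 23158028, plus strand) had 48.0, 66.2 and 74.1 CPM in Atrx-cKO replicates 1 to 3 and 63.3, 50.4 and 65.6 CPM in control replicates 1 to 3. The lowest libraries were Atrx-cKO 1 and control 2, and neither genotype stood above the other. Group means were 62.8 ± 13.4 CPM in Atrx-cKO and 59.8 ± 8.21 in control (SD, n = 3 each), a log2 fold change of 0.071 (standard error 0.17, edgeR adjusted p = 0.994). The 95% interval ran from a 0.798-fold to a 1.38-fold level in Atrx-cKO, so a 2-fold difference of *Adipoq* in either direction lay outside it.

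*Cfd* (ENSMUSG00000061780, chromosome 10 from 79890853 to 79892655, plus strand), encoding the complement protease adipsin, was at 5.78, 13.6 and 13.8 CPM in Atrx-cKO and 18.6, 9.93 and 17.2 CPM in control tibias. Again the lowest values were in Atrx-cKO 1 and control 2. The log2 fold change of -0.46 had a wide 95% interval, from -1.30 to 0.37 (edgeR adjusted p = 0.992). *Retn* (ENSMUSG00000012705, chromosome 8 from 3655770 to 3660110, plus strand) encodes resistin, an adipokine of mouse fat. With between 32 and 68 counts per library it had the lowest level per kb of the 10 genes. *Retn* was at 0.547, 0.753 and 0.679 CPM in Atrx-cKO and 0.648, 1.02 and 0.840 CPM in control. The ranges overlapped through control 1, and the log2 fold change was -0.34 (95% interval -1.05 to 0.37, edgeR adjusted p = 0.992).

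Among the genes of fatty acid uptake and carriage, *Lpl* had the lowest unadjusted p of the 10 in edgeR. *Lpl* (ENSMUSG00000015568, chromosome 8 from 68880491 to 68907448, plus strand) encodes lipoprotein lipase, which frees fatty acids from circulating triglyceride and is also made by muscle and macrophages. It had 297, 248 and 329 CPM in Atrx-cKO and 242, 216 and 274 CPM in control tibias. Control 3 was above Atrx-cKO 2, so the groups overlapped. The means were 292 ± 40.9 and 244 ± 28.9 CPM (SD, n = 3 each), a log2 fold change of 0.26 (standard error 0.13, unadjusted p = 0.0918 and adjusted p = 0.992 by edgeR). Without control 3 the log2 fold change of *Lpl* was 0.34 (unadjusted p = 0.0425 by edgeR, which did not pass after adjustment). *Fabp4* (ENSMUSG00000062515, chromosome 3 from 10204088 to 10208576, minus strand) encodes the fatty acid binding protein of adipocytes, which endothelial cells and macrophages make as well. Its values were 104, 165 and 163 CPM in Atrx-cKO and 132, 94.7 and 140 CPM in control, lowest in control 2 and Atrx-cKO 1. For *Fabp4* the log2 fold change was 0.23 (95% interval -0.25 to 0.72, edgeR adjusted p = 0.992). The summed level of 10 endothelial markers was 1042 to 1061 CPM in Atrx-cKO and 901 to 1028 CPM in control, and that of 10 macrophage markers was 1031 to 1056 and 967 to 1096 CPM. Their part in the *Fabp4* and *Lpl* values was not tested.

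The droplet genes among the 10 had low levels, and *Plin1* had the widest spread of the 10 genes between its highest and lowest library. *Plin1* (ENSMUSG00000030546, chromosome 7 from 79720218 to 79732903, minus strand) encodes perilipin 1, which guards stored fat against lipases. It was at 2.27, 3.75 and 7.84 CPM in Atrx-cKO and 4.82, 2.69 and 8.46 CPM in control. Each group held low and high libraries, and the highest was 3.72 times the lowest. Between groups the log2 fold change was -0.20 (95% interval -1.42 to 1.02, edgeR adjusted p = 0.994), and it was 0.29 without control 3 and 0.13 without Atrx-cKO 1.

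*Plin4* (ENSMUSG00000002831, chromosome 17 from 56100591 to 56109803, minus strand) encodes perilipin 4, found on small droplets of fat and also in skeletal muscle. It had 8.32, 4.85 and 6.55 CPM in Atrx-cKO and 7.34, 6.45 and 15.4 CPM in control. Control 3, the library with the highest muscle markers, was far above the other 5. The log2 fold change was -0.56 (95% interval -1.39 to 0.26, edgeR adjusted p = 0.992) over all libraries and -0.083 without control 3. Exons of *Hdgfl2* overlap *Plin4* on the opposite strand.

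*Cidec* (ENSMUSG00000030278, chromosome 6 from 113424634 to 113435760, minus strand) encodes a protein that fuses droplets into larger ones. Its levels were 2.75, 2.19 and 3.10 CPM in Atrx-cKO and 2.94, 3.39 and 4.03 CPM in control. Only Atrx-cKO 3 lay in the control range. Its log2 fold change was -0.36 (95% interval -0.85 to 0.13, edgeR adjusted p = 0.992), and -0.25 without control 3. Altogether 3 of the 10 genes were highest in control 3 (*Plin1*, *Plin4* and *Cidec*), as were 22.4% of all tested genes. The part of muscle RNA in these values was not tested.

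**Figure D2:**
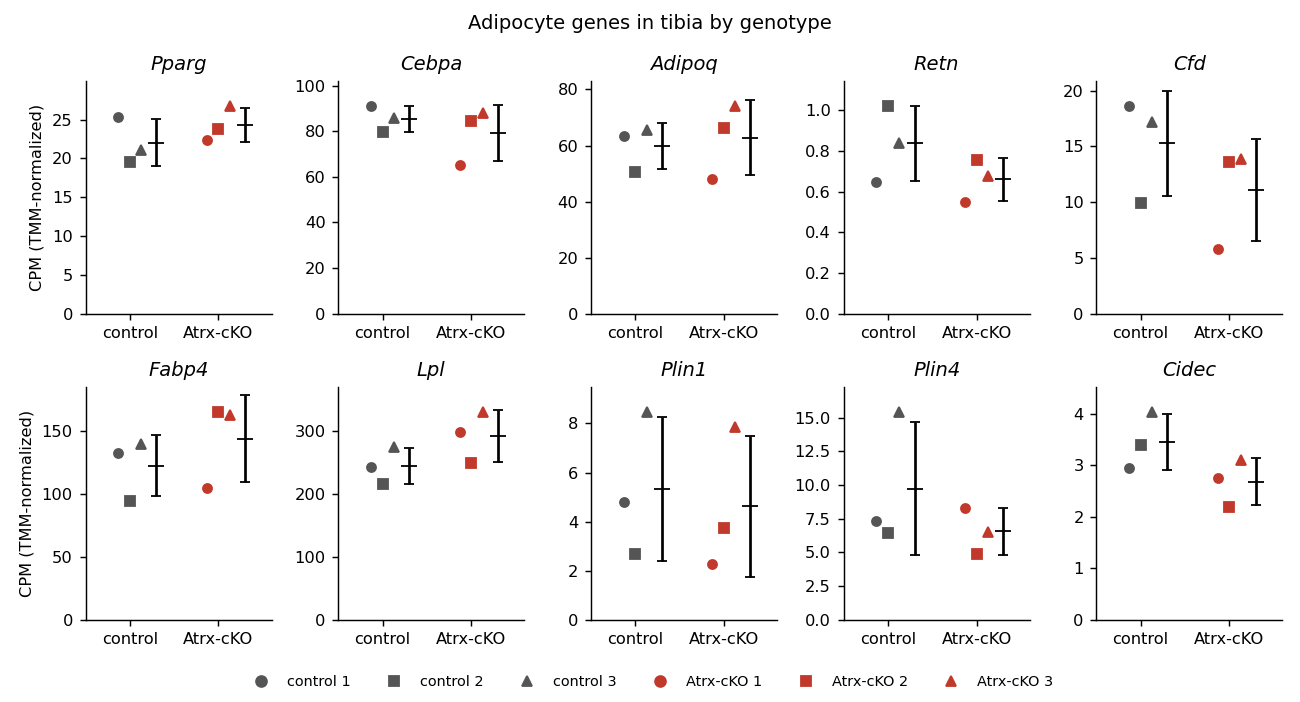
Level of each adipocyte gene (TMM-normalized CPM, linear axes from 0) in the 3 control (gray) and 3 Atrx-cKO (red) libraries, with the mean and SD of each group beside the points. The groups overlap in all 10 genes, and *Plin4* of control 3 stands at 15.4 CPM above the other 5 libraries.

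**Figure D3:**
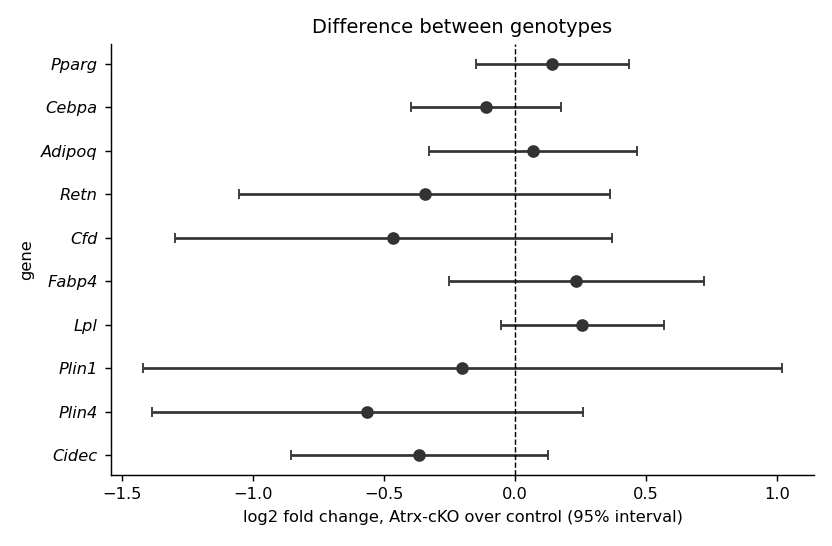
The log2 fold change of each adipocyte gene (Atrx-cKO over control) with its 95% interval from the edgeR fit. All 10 intervals include 0, and that of *Plin1* is the widest, from -1.42 to 1.02.

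The precision differed among genes. For *Pparg*, *Cebpa*, *Lpl* and *Adipoq* the 95% intervals, as folds of the control level, were 0.902 to 1.35, 0.760 to 1.13, 0.964 to 1.48 and 0.798 to 1.38. Those of *Plin1*, *Plin4*, *Cfd* and *Retn* reached 0.374, 0.383, 0.407 and 0.482 at their lower ends. A level of 0.5 of control therefore lay inside the intervals of these 4 genes.

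Variation among libraries of the same genotype was shared by several of the genes. Atrx-cKO 1 and control 2, from opposite genotypes, were the 2 lowest libraries for 5 of the 10 (*Adipoq*, *Plin1*, *Fabp4*, *Cfd* and *Cebpa*), a pattern that was noticed after the values were seen and that 6.23% of all tested genes also showed. Relative to each gene's mean over the 6 libraries, the median log2 level of the 10 genes was -0.28 in Atrx-cKO 1 and -0.25 in control 2. It was 0.030 and 0.19 in Atrx-cKO 2 and 3, and 0.043 and 0.11 in control 1 and 3. Atrx-cKO 1 and Atrx-cKO 3, of 1 genotype, were thus the lowest and highest of the 6 libraries. A gap between single libraries is a different measure from the -0.15 between the genotypes, which rests on 3 libraries each. Summed neutrophil markers were highest in Atrx-cKO 1, at 13601 CPM, and lay between 7769 and 11127 CPM elsewhere, including 9359 in control 2. Erythroid markers were lowest in control 2, at 2592 CPM, with 5104 in Atrx-cKO 1. Their part in the shared pattern was not tested.

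**Figure D4:**
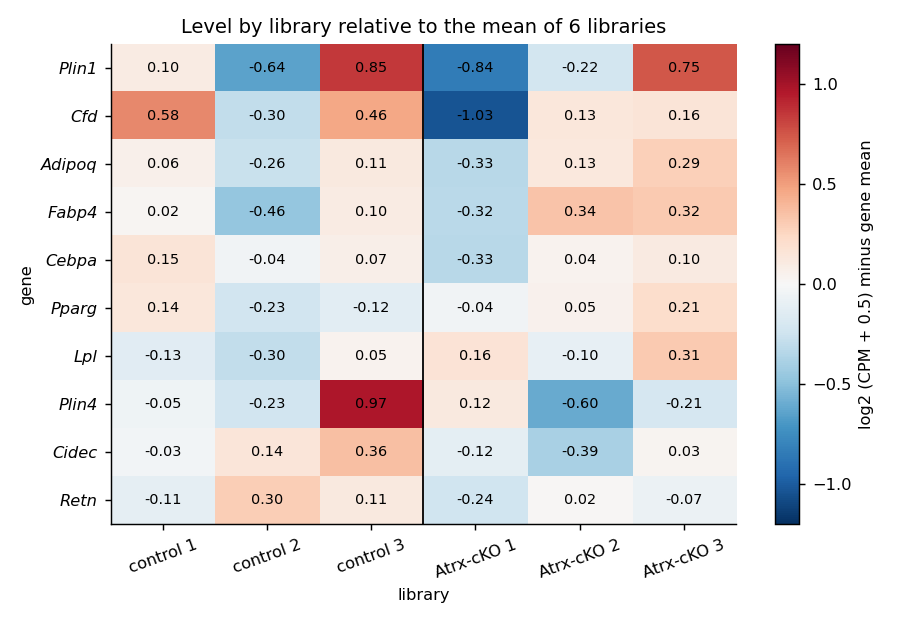
Level of each adipocyte gene in each library as log2 (CPM + 0.5) minus the gene's mean over the 6 libraries, with blue for below and red for above the mean, and a line between control and Atrx-cKO. The columns of control 2 and Atrx-cKO 1 are below the mean for 8 of the 10 genes each, and *Plin4* in control 3 reaches 0.97.

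The genes did not all follow this pattern. Over the 6 libraries, Pearson's r between a gene and the mean of the other 9 was 0.986 for *Plin1*, 0.868 for *Adipoq*, 0.784 for *Cfd*, 0.741 for *Cebpa* and 0.655 for *Fabp4*. It was 0.306 for *Pparg*, 0.259 for *Cidec*, 0.203 for *Plin4*, 0.185 for *Lpl* and -0.069 for *Retn*. These are descriptions of 6 libraries that differ in cell makeup and depth. The genes most like the mean of the members, of 16160 compared at 1 CPM or more, included *1810059H22Rik*, *Il12a*, *D5Ertd579e*, *Gpr17*, *Caskin1*, *Gm44993*, *Dync2h1*, *Adnp* and *Ssbp2*, with Pearson's r from 0.979 to 0.999 and Spearman's rho from 0.886 to 1. None of those named is in the adipocyte lists used here.

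The starts of the adipocyte genes, with or without the shared pattern, were searched for sequence motifs of adipocyte regulators. RefSeq promoters on GRCm38.p6 were held for 8 of the 10 genes, with 11 start sites, and *Fabp4* and *Lpl* had no entry. The promoters of 3 genes with the shared pattern are shown, each as the 250 bases before its annotated start on the plus strand, 5′ to 3′, with matches to the searched motifs in capitals. That of *Plin1*, which also had the shared pattern, was searched and is not printed.

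Adipoq, chr16:23146286-23146535: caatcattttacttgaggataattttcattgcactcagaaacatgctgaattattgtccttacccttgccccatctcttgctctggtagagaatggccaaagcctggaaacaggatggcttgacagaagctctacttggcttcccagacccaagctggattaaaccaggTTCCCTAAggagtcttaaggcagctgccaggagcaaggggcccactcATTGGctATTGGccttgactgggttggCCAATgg
Cfd, chr10:79890603-79890852: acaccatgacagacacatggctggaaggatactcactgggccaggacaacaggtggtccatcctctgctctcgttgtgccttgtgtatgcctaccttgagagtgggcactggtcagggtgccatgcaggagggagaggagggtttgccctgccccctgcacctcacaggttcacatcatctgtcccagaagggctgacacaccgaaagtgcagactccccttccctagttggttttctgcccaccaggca
Cebpa, chr7:35119043-35119292: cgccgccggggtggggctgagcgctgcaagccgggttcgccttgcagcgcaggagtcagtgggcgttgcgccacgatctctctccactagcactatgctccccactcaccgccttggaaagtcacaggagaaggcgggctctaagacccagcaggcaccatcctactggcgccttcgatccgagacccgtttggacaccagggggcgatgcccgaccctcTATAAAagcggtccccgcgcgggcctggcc

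The motifs were AGGTCA (a half-site), the same letters repeated with 1 base between (the form bound by PPARγ with its partner RXR), TTNNGNAA (a C/EBP site), TATAAA (the TATA box) and CCAAT, each on both strands. *Adipoq* held 1 C/EBP match and 3 CCAAT matches, *Cebpa* held 1 TATA box, and *Cfd* held none of the letters. C/EBP matches were found at 5 of the 11 starts (4 genes, *Cidec*, *Pparg*, *Plin1* and *Adipoq*), beside 36.8% of the 32851 promoters in the table. AGGTCA was found at 2 of the 11 starts, both of *Pparg*, beside 14.0%, and the repeat at 0, beside 0.0335%. TATAAA was found at 2 starts (*Pparg* and *Cebpa*), beside 12.4%, and CCAAT at 4 (*Pparg*, *Adipoq* and *Plin4*), beside 33.8%. A match in these letters is a description of the sequence and not a bound site.

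Beyond the 10 genes, 79 further genes of the adipocyte pathways were followed in 9 lists, of which 77 passed the filter on low counts. EdgeR called 0 of the 77 after adjustment and 2 at an unadjusted p under 0.05 (3.64% of all tested genes), and DESeq2 called 0. The unadjusted count was 9 of 78 without control 1, where 9.72% of all genes also passed it. It was 7 of 78 without Atrx-cKO 1 (3.43% of all genes), 5 of 78 without control 2 (3.87%) and 3 of 77 without Atrx-cKO 3 (3.31%). Leaving out Atrx-cKO 2 or control 3 gave 2 of 78 (2.80%) and 2 of 77 (2.755%). Estimates were above 0 for 40 and below 0 for 37, with a median log2 fold change of 0.0028. The groups did not overlap for 4 of the 77, against 8.31% of all tested genes. These were *Slc27a1*, *Hilpda*, *Bscl2* and *Insr*, all named after their values were seen.

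Transcriptional partners of *Pparg* and *Cebpa* had similar levels in both groups. *Cebpb*, which acts early in fat cell formation, was at 37.9 ± 6.06 CPM in Atrx-cKO and 37.0 ± 0.244 in control (SD, n = 3 each). *Rxra*, the partner receptor of PPARγ, was at 81.5 ± 7.27 and 86.5 ± 13.7 CPM, and *Srebf1*, a regulator of lipid synthesis, at 73.6 ± 7.22 and 75.3 ± 7.16. Of the 12 genes of this list, 0 were called, and the largest estimate was for *Mlxipl*, encoding the carbohydrate-sensing factor ChREBP, at -0.94. *Mlxipl* had 5.54 CPM in control 3, where it was highest, and 1.38 ± 0.539 CPM in Atrx-cKO, and the estimate without control 3 was 0.15.

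Lipid droplet and lipolysis genes gave a similar picture. *Plin2*, the perilipin found in most cell types, had 67.1, 56.6 and 53.5 CPM in Atrx-cKO and 53.0, 51.0 and 55.0 CPM in control. *Cavin1*, a caveolar protein of fat cells, was at 116 ± 2.65 and 121 ± 12.2 CPM. The groups overlapped for both. *Bscl2*, encoding the droplet assembly protein seipin, was at 47.9 ± 0.313 and 51.4 ± 2.16 CPM. *Hilpda*, an inhibitor of fat breakdown, was at 7.05 ± 0.526 and 8.89 ± 0.911 CPM. The log2 fold changes of *Bscl2* and *Hilpda* were -0.10 and -0.33 (edgeR adjusted p = 0.992 for each). *Cidea*, a droplet gene of brown fat, had 8, 29 and 23 counts in Atrx-cKO and 4, 1 and 11 in control, and the groups overlapped through Atrx-cKO 1 and control 3. It had the largest estimate of the pathway genes, a log2 fold change of 1.77 (95% interval -0.23 to 3.78, edgeR adjusted p = 0.992), and 2.99 without control 3 (unadjusted p = 0.0146 by edgeR, which did not pass after adjustment), resting on 1 to 29 counts per library. *Pnpla2*, the gene of the first lipase of triglyceride breakdown, was at 43.7 ± 5.46 CPM in Atrx-cKO and 45.6 ± 2.85 in control. *Mgll*, the gene of the last, was at 84.1 ± 6.27 and 92.4 ± 10.3 CPM. None of the 7 lipolysis genes passed in edgeR or at an unadjusted p under 0.05, and their largest estimate was that of *Aqp7*, the glycerol channel, at -0.49 and -0.085 without control 3. *Abhd5*, which activates the first lipase, was at 52.8 ± 6.35 and 49.8 ± 3.91 CPM.

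Uptake genes gave 0 calls of 9. *Cd36*, a fatty acid transporter, was at 78.1 ± 13.7 CPM in Atrx-cKO and 68.0 ± 10.9 in control. *Gpihbp1*, which anchors lipoprotein lipase to capillaries, was at 18.2 ± 4.45 and 17.6 ± 1.24 CPM. *Acsl1*, which activates fatty acids for use, was at 85.0 ± 2.73 and 83.9 ± 9.77 CPM. These levels differed by less than the spread within groups. *Slc27a1*, another fatty acid transporter, was at 39.2 ± 3.01 and 48.3 ± 6.64 CPM, a log2 fold change of -0.30 (adjusted p = 0.992 by edgeR) and -0.20 without control 3. In the list of 16 synthesis genes, *Scd1*, encoding the stearoyl-CoA desaturase, was at 183 ± 40.4 and 222 ± 44.6 CPM. *Dgat1*, which completes triglyceride, was at 66.6 ± 15.4 and 58.0 ± 11.3 CPM, and *Acly*, which makes the precursor of fatty acids, at 136 ± 9.33 and 135 ± 12.0 CPM. *Gpd1*, which supplies the glycerol backbone and is also a muscle gene, had the largest estimate of that list at -0.66, with 56.6 CPM in control 3 and 18.2 ± 2.42 CPM in Atrx-cKO. It was 0.28 without control 3.

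Hormones and receptors beside *Adipoq* did not pass either. *Lep*, encoding leptin, had 2.43, 0.350 and 0.611 CPM in Atrx-cKO and 1.40, 2.88 and 1.03 CPM in control. Atrx-cKO 2 and Atrx-cKO 3 were the lowest libraries, and the groups overlapped through Atrx-cKO 1. *Lep* had the largest estimate of the adipokine list, a log2 fold change of -0.65 (edgeR adjusted p = 0.992), and -0.94 without control 3. *Angptl4*, a secreted inhibitor of lipoprotein lipase, was at 67.0 ± 12.7 and 57.0 ± 17.1 CPM. The chemerin gene *Rarres2* was at 36.0 ± 2.12 and 30.3 ± 4.27 CPM, and *Nampt*, which many cell types express, at 53.5 ± 1.82 and 50.3 ± 5.26 CPM. The log2 fold change of *Rarres2* was 0.25, and 0.36 without control 3 (unadjusted p = 0.00812 by edgeR, which did not pass after adjustment). Of the 10 adipokine genes, 4 had estimates above 0 and 6 below. The adiponectin receptor genes *Adipor1* (168 ± 4.06 and 178 ± 12.1 CPM) and *Adipor2* (97.5 ± 0.322 and 101 ± 3.88 CPM) had small estimates. *Slc2a4*, the insulin-regulated glucose transporter gene of fat and muscle, had the largest estimate of the receptor list at -0.80 (edgeR adjusted p = 0.992), and -0.30 without control 3, which had 33.6 CPM.

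Genes of brown and beige fat were near the limit of detection for the defining member. *Ucp1*, the heat-producing channel of brown fat, had 0 counts in control 1 and control 2 and at most 0.339 CPM in any library, and *Elovl3* had 0 counts in control 2. Neither was tested. *Cox8b* and *Cox7a1*, which muscle also expresses, had 9.93 and 8.57 CPM in control 3 and at most 4.84 and 6.12 CPM in the other libraries. Their estimates of -0.86 and -0.56 became 0.044 and 0.11 without control 3. *Dio2*, which activates thyroid hormone, was at 9.66 ± 4.85 CPM in Atrx-cKO and 7.31 ± 1.99 in control.

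Markers of stromal precursors that can form marrow adipocytes had a summed level of 5922 to 6469 CPM in Atrx-cKO and 4997 to 6083 CPM in control. *Cxcl12*, the niche chemokine, made up most of that sum, at 3520 ± 128 and 3111 ± 371 CPM. *Lepr*, the leptin receptor that marks these cells, was at 196 ± 40.3 and 194 ± 15.9 CPM. Atrx-cKO 1 was the lowest library for *Lepr*, *Kitl*, *Ebf3* and *Foxc1*, and a control library was lowest for the other genes of the list. The estimates of all 10 genes were above 0, with a median log2 fold change of 0.15 and values from 0.0019 to 0.42, and 0 of them passed in edgeR or at an unadjusted p under 0.05. *Apoe*, a lipid carrier protein gene, was at 802 ± 119 and 735 ± 72.6 CPM. *Hp*, encoding haptoglobin and also expressed by neutrophils, had the largest estimate at 0.42, with 540 CPM in Atrx-cKO 1, the library with the highest neutrophil markers, and 217 to 324 CPM in the other 5. Without control 3, 7 of the 10 stromal estimates were above 0, those of *Lepr*, *Kitl* and *Ebf3* were below, and the median was 0.065. The endothelial and neutrophil lists also had 10 of 10 estimates above 0 over all libraries, with medians of 0.14 and 0.21. Without control 3 these were 9 of 10 and 8 of 10, with medians of 0.12 and 0.068. Of the 10 osteoblast markers, 9 had estimates below 0, with a median of -0.20. Without control 3, 7 of the 10 osteoblast estimates were below 0, with a median of -0.154. Summed osteoblast markers were highest in control 2 and control 3, at 187662 and 169674 CPM, and 111049 to 121371 CPM elsewhere. Most of that sum was *Col1a1* and *Col1a2*, with means of 67005 and 61527 CPM over all libraries. Of the 10 osteoblast markers, only *Phex* was highest outside control 2 and control 3, at 382 CPM in Atrx-cKO 3. The part of these cell types in the stromal values was not tested.

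**Figure D5:**
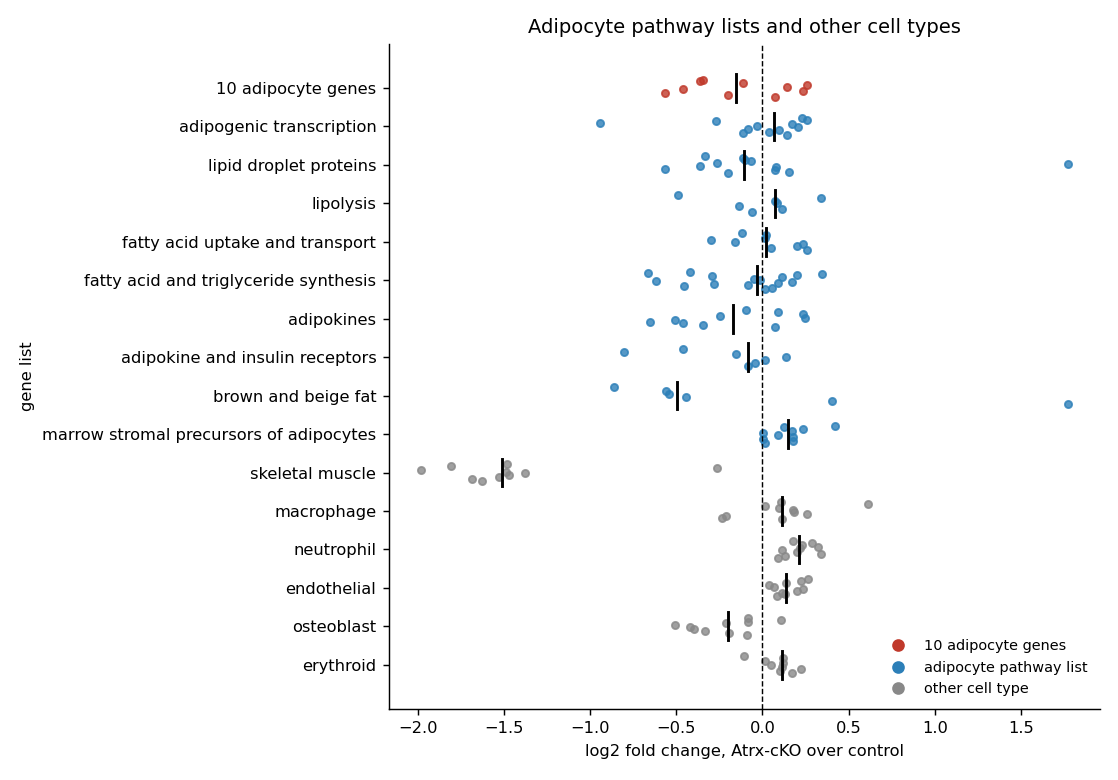
The log2 fold change (Atrx-cKO over control) of each tested gene in the 10 adipocyte genes (red), the adipocyte pathway lists (blue) and marker lists of other cell types (gray), with a black bar at the median of each list. The red points lie from -0.56 to 0.26 around a median of -0.15, and the muscle list has a median of -1.51.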

How the data were processed

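Polyadenylated RNA from tibias was sequenced in 3 Atrx-cKO and 3 control libraries. The authors deposited raw counts per gene, 1 table per library, with summary rows like those of htseq-count. The submitters' notes name GRCm38 and DESeq2. The aligner, the counting program and its strand setting are not given in the sources used here. Rows that name no gene were kept out of library sizes, and reads on no feature were 51.6% to 52.4% of each table.

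Genotype and replicate came from the sample labels. GENCODE M21 matched 55141 of 55401 identifiers, and 148 of 149 listed symbols were found. Counts were fitted with edgeR 4.0.16 in R 4.3.3 (TMM, filterByExpr, glmQLFit and glmQLFTest, genotype only), and p-values were adjusted over all 20636 tested genes. Alternatives were RLE or upper quartile scaling, no filter, at least 10 counts in every library, DESeq2 1.42.0, the replicate number as a block, and leaving out each library. Levels between genes were compared per kb of the longest principal protein-coding transcript.

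The 10 genes and the lists were chosen with earlier results of these data known. Named pathway genes were the most abundant per kb and the one with the largest estimate in each list. *Hilpda*, *Insr*, *Ucp1*, *Elovl3* and others described for a separate value were named after their values were seen. Of the 10 genes most like the members, 1 is not reported here. Libraries of a group differed by more than sampling noise (17.1 to 152 for chi-square divided by its degrees of freedom). On simulated counts for 20636 genes of this comparison, the edgeR fit recovered 71 of 100 genes changed by 1 on the log2 scale and 99 of 100 changed by 2, with 10 false calls. The simulated spread followed the trend over all genes, with no library set apart, and only genes above 1 CPM were changed. It therefore does not give the recovery for genes of wider spread, such as *Plin1*, or for *Retn*, at a mean of 0.748 CPM.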

Additional observations from a re-analysis of the deposited data

How the results depend on the processing

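Calls did not change under any alternative: 0 of the 10 adipocyte genes and 0 of the tested pathway genes were called under RLE or upper quartile scaling, without a filter, with at least 10 counts in every library, with DESeq2, with the replicate block, or without any 1 library. The lowest adjusted p of an adipocyte gene under any of these was 0.523, without control 1. Of 120 values of the 10 genes under the alternatives, 5 reversed their sign, all without 1 library, and 115 kept it. On the log2 scale, *Plin1* was 0.13 without Atrx-cKO replicate 1 and 0.29 with control replicate 3 left out, and *Cebpa* was 0.0123 without Atrx-cKO replicate 1 (range -0.20 to 0.0123 over the left-out libraries). *Adipoq* was -0.0667 without Atrx-cKO replicate 3 and -0.0396 with control replicate 2 left out (range -0.0667 to 0.23). The cause was not tested. The median of the 10 genes lay between -0.28 and 0.0695 when 1 library was left out, with 0.0695 without Atrx-cKO replicate 1, and that of the pathway genes between -0.0558 and 0.0355, with -0.0558 without Atrx-cKO replicate 2. With the replicate block, the medians were -0.18 and -0.023, 0 genes of either set were called, and 1 of the 10 and 4 of the pathway genes had an unadjusted p under 0.05. Libraries of the same replicate number had correlations of deviations of -0.0031, 0.108 and -0.0996. With 3 libraries per genotype, these values cannot decide whether the numbers pair the libraries, and the labels do not say so. Without 1 library, *Plin4*, *Plin1* and *Cfd* ranged from -0.79 to -0.083, from -0.81 to 0.29 and from -0.70 to -0.15. *Fabp4* ranged from 0.080 (without control 2) to 0.42 (without Atrx-cKO 1), *Pparg* from 0.062 (without control 2) to 0.26 (without control 1), *Lpl* from 0.16 (without Atrx-cKO 3) to 0.36 (without Atrx-cKO 2), *Cidec* from -0.48 (without Atrx-cKO 3) to -0.24 (without Atrx-cKO 2) and *Retn* from -0.50 (without control 1) to -0.17 (without control 2). Of the 10 genes, *Retn* rested on 32 to 68 counts.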
